A study of Mus musculus with 6 samples.

Results

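The Notch genes described here are 10 rows of a deposited expression table of 39089 mouse genes, taken by gene symbol. They are the receptors Notch1, Notch2 and Notch3, the ligands Jag1, Jag2 and Dll1, the receptor-modifying enzyme Lfng (lunatic fringe), and the target repressors Hes1, Hey1 and Heyl. All 10 were found, and all 10 passed the filter on low counts. The tissue was the corneal limbus, the rim of the cornea where the stem cells of its epithelium reside, from wild-type mice. The treated group (3 samples) came from mice given L-733,060, an antagonist of the substance P receptor NK1, under the conjunctiva on days 0 and 3, with collection after a week. The control group (3 samples) came from mice given sterile water by the same route. The labels give neither the age nor the sex of the mice, nor the days of the control injections. They do not say that each sample is a separate mouse, so p-values cover only how these samples varied, and part of that can be technical.

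Notch receptors are single-pass membrane proteins that bind Jagged or Delta-like ligands on neighbouring cells. Binding leads ADAM proteases and then gamma-secretase to cut the receptor, and the freed intracellular domain joins the DNA-binding protein RBPJ and a Mastermind coactivator to switch on Hes and Hey genes. In the mouse cornea Notch1 is known for a role in keeping epithelial identity during repair, while Notch3 is best known as the receptor of vascular smooth muscle and pericytes.

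The promoters of 7 of the 10 genes were available from RefSeq (GRCm38.p6), as 8 windows of 300 bases that run from 250 before to 50 after the start that this promoter table gives. Hes1, Hey1 and Heyl had no entry. The bases before that start are shown for Notch3 and Notch4, receptors that moved in opposite directions, and for Lfng, whose window was the only one of the 8 to hold the RBPJ core TGGGAA on either strand. Capitals mark TGGGAA (or its reverse complement TTCCCA) and the E box CACGTG, a sequence that Hey proteins and some Hes proteins bind.
Notch3, chr17:32166891-32167140, minus strand: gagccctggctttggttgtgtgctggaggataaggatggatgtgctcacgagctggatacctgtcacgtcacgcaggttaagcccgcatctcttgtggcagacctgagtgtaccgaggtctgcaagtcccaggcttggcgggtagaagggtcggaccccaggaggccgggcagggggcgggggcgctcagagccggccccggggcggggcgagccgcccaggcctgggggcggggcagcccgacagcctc
Notch4, chr17:34564045-34564294, plus strand: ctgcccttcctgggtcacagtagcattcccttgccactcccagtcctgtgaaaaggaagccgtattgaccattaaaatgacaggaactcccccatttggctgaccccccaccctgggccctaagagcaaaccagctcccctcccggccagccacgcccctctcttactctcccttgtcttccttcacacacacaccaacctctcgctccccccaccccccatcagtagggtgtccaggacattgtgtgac
Lfng, chr5:140607091-140607340, plus strand: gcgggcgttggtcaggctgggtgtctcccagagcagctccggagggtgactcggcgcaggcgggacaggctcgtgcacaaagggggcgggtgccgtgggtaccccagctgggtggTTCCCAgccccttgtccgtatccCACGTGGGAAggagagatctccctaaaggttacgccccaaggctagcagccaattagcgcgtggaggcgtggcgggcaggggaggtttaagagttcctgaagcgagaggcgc
The deposited table places the start of Notch3 and Notch4 slightly differently, so the last 6 bases shown for Notch3 and the last 9 for Notch4 lie inside the gene as it is placed there, and 0 of those for Lfng. Among the windows not shown, that of Jag2 (chr12:112929446-112929745) and a Dll1 window (chr17:15375774-15376073) lie wholly inside the gene as placed there. The Lfng window held TGGGAA at 2 places, starting at positions -135 and -108 from the start in the promoter table, and the second overlapped the E box. Of all 32851 promoters in the table, 25.6% held TGGGAA on either strand, against 1 of the 8 windows here. The E box occurred in 1 of the 8 windows and in 7.15% of all promoters. The N box CACNAG, searched on both strands and not capitalised, occurred in 5 of the 8 windows and in 42.5% of all promoters. These matches describe letters and not binding.

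The libraries held 18708288 to 23541791 counted reads. The defining markers of the tissue were present: the 7 corneal epithelial markers summed to 29726 to 39981 normalised CPM (counts scaled to library size) in controls, and the 7 basal epithelial markers to 32939 to 38718. Of the 3 treated libraries, L-733,060 replicate 3 stood apart from the others. It was the farthest of the 3 from its group's median in 44.5% of the 15712 tested genes, and the first principal component placed it at 54.5, against 67.5 and 68.8 for replicates 1 and 2 and -66.2 to -62.2 for the controls. Results that rest on it are therefore given with and without it.

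Levels are compared between genes in TPM, a unit scaled by both gene length and library size. In controls Hes1 was the most abundant of the 10 genes, at 137 ± 12.4 TPM (SD, n = 3). Jag2 (38.4 ± 10.04) and Notch3 (38.2 ± 9.44) followed and overlapped each other. The next 5 genes, Notch2 (17.6 ± 2.85), Lfng (16.4 ± 3.25), Jag1 (15.6 ± 3.57), Dll1 (13.7 ± 3.54) and Notch1 (12.6 ± 2.84), lay below Notch3 in every control sample but each overlapped its neighbours in that order. Hey1 (1.45 ± 0.288) and Heyl (0.172 ± 0.120) were far lower and did not overlap each other. After L-733,060 Hes1 (96.2 ± 31.9 TPM) and Jag2 (25.8 ± 13.2) still headed the order, and Jag2 overlapped the next genes. Notch2 (15.9 ± 4.67), Notch3 (14.6 ± 10.5), Lfng (14.2 ± 4.39), Jag1 (12.7 ± 2.69), Notch1 (8.92 ± 4.402) and Dll1 (8.74 ± 3.63) formed a run of overlapping neighbours. Hey1 (1.14 ± 0.378) and Heyl (1.10 ± 0.801) overlapped at the bottom.

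**Figure D1:**
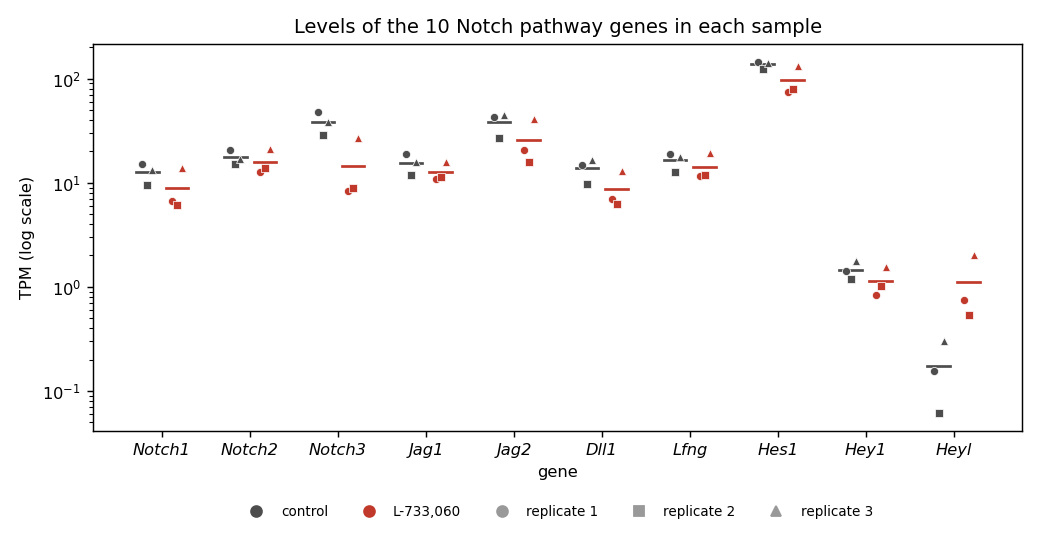
TPM (vertical axis, log scale) of the 10 genes in each of the 6 samples. Grey points are controls, red points L-733,060 samples, shapes mark the replicate and bars the group mean. Heyl is the only gene with all red points above the grey ones, and Notch3 is the only one with all red points below.

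Of the 10 genes, Heyl rose and Notch3, Hes1 and Dll1 fell with L-733,060, while 6 did not pass the test. The test was edgeR's quasi-likelihood test on counts across 15712 genes, with Benjamini-Hochberg adjustment and a threshold of 0.05. In the same test 41.3% of all genes passed, 21.4% higher and 19.9% lower. The 4 of 10 called here are therefore close to the share of all genes. The groups did not overlap in normalised CPM for 3 of the 10 genes, against 52% of all genes. The median log2 fold change of the 10 genes was -0.45, against -0.0016 over all tested genes. In bulk tissue, fewer cells of a type and less RNA per cell cannot be told apart, and this holds for every change below.

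Among the receptors, Notch3 fell. In controls 1, 2 and 3 its TPM was 47.8, 28.9 and 38.0, and in the L-733,060 replicates 8.24, 8.87 and 26.7, in the same order of numbers, which is kept below. All treated values were below all controls, but the third lay close to the lowest control. The fitted log2 fold change was -1.43 (SE 0.34, adjusted p = 0.00584), which is 2.69-fold lower. Without L-733,060 replicate 3 it was -2.14 (adjusted p = 9.8e-09). In normalised CPM, the unit of the marker sums that follow, Notch3 had 185, 123 and 150 in controls and 34.3, 35.6 and 100 after L-733,060. Mural cells are the pericytes and smooth muscle in which Notch3 is best known. The summed level of 11 mural markers was 33.6 to 39.6 CPM in controls and 159 to 231 after L-733,060. Acta2 made up much of it: the other 10 markers summed to 23.5 to 26.2 CPM in controls and 47.6 to 65.8 after L-733,060. Within that list Myh11 fell (-0.96), a call lost without control 2 or L-733,060 replicate 2, and Pdgfrb was at 0.31 and not called. The part of these markers in the Notch3 result was not tested.

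Notch1 had 15.2, 9.58 and 13.2 TPM in controls and 6.66, 6.10 and 14.0 after L-733,060. Treated replicates 1 and 2 lay below all controls and replicate 3 within them. The fitted change was -0.53 on the log2 scale (SE 0.25, adjusted p = 0.1101) and was not called. Without L-733,060 replicate 3 it was -0.96 (adjusted p = 7.78e-05), and without replicate 1 instead -0.38 (adjusted p = 0.309). Notch2 had 20.8, 15.2 and 16.9 TPM in controls and 12.6, 13.8 and 21.3 after L-733,060. In TPM its treated replicate 3 was above every control. The log2 fold change was -0.17 (SE 0.16, adjusted p = 0.441), and -0.39 without replicate 3 (adjusted p = 0.0230). Without replicate 1 instead it was -0.056 (adjusted p = 0.845).

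The make-up of the receptor transcripts moved away from Notch3. Notch3 made up 56.9%, 53.5% and 55.4% of the summed TPM of the 4 Notch receptors in controls, and 29.1%, 30.1% and 42.2% after L-733,060. Notch2 made up 24.7%, 28.1% and 24.6% in controls and 44.5%, 46.9% and 33.7% after L-733,060. Notch1 made up 17.7 to 19.2% in controls and 20.7 to 23.5% after L-733,060. The groups overlapped in none of the 3 shares. The log2 ratio of Notch3 to Notch1 TPM, which does not depend on how libraries are scaled, was 1.59 ± 0.062 (SD, n = 3) in controls and 0.59 ± 0.31 after L-733,060. The exact two-sided permutation test of the difference of -1.0003 gave p = 0.1, the smallest p that 3 against 3 samples allow, and 0.3 after adjustment over the 6 ratios computed. The difference was -1.17 without L-733,060 replicate 3. The Notch1 to Notch2 ratio moved by -0.41 (exact permutation p = 0.2, adjusted p = 0.3), and its groups overlapped. That move was -0.56 without L-733,060 replicate 3 and -0.27 without replicate 2.

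Of the ligands, Dll1 fell. It had 14.7, 9.81 and 16.7 TPM in controls and 7.05, 6.27 and 12.9 after L-733,060. Treated replicates 1 and 2 lay below every control, while replicate 3 lay above control 2. The log2 fold change was -0.67 (SE 0.24, adjusted p = 0.0403), and -1.02 without L-733,060 replicate 3 (adjusted p = 2.04e-04). The call was lost when control 1, control 3, L-733,060 replicate 1 or L-733,060 replicate 2 was left out, with adjusted p-values of 0.112, 0.163, 0.132 and 0.122.

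Jag2, the most abundant of the ligands per length, had 43.1, 26.9 and 45.2 TPM in controls and 20.6, 15.9 and 40.7 after L-733,060. The treated replicate 3 lay among the controls. The fitted change was -0.60 on the log2 scale (SE 0.27, adjusted p = 0.0956), short of the threshold. It passed without control 2 (-0.79, adjusted p = 0.0495) and without L-733,060 replicate 3 (-1.04, adjusted p = 1.12e-04). Jag1, the other Jagged ligand, had 19.1, 11.9 and 15.7 TPM in controls and 10.8, 11.5 and 15.8 after L-733,060, so the groups overlapped. Its log2 fold change was -0.31 (SE 0.16, adjusted p = 0.142). It passed without control 2 (-0.46, adjusted p = 0.0481) and without L-733,060 replicate 3 (-0.46, adjusted p = 0.0182).

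The proportions among the ligands overlapped between the groups. Jag2 made up 54.7 to 58.0% of the summed TPM of Jag1, Jag2, Dll1 and Dll4 in controls and 46.7 to 57.1% after L-733,060. The log2 ratio of Jag2 to Jag1 moved by -0.37 (exact permutation p = 0.3) and that of Dll1 to Jag1 by -0.40 (exact permutation p = 0.2). Both had an adjusted p of 0.3 over the 6 ratios. The moves were -0.59 and -0.55 without L-733,060 replicate 3. With replicate 2 left out instead they were -0.14 and -0.26, and without control 3 -0.25 and -0.26.

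Lfng encodes a glycosyltransferase that adds a sugar to Notch receptors and shifts their response between Delta-like and Jagged ligands. It had 19.0, 12.8 and 17.6 TPM in controls and 11.6, 11.7 and 19.3 after L-733,060. In TPM its treated replicate 3 was above every control and replicates 1 and 2 below all of them. The log2 fold change was -0.23 (SE 0.19, adjusted p = 0.376), and -0.47 without L-733,060 replicate 3 (adjusted p = 0.0340). Without replicate 2 instead it was -0.12 (adjusted p = 0.693).

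The target repressors did not move as a group. Hes1, a basic helix-loop-helix repressor, fell, while Heyl, a relative of it in the Hey family, rose. Hes1 had 146, 123 and 142.5 TPM in controls and 75.2, 80.4 and 133 after L-733,060. In TPM the treated replicate 3 lay above control 2, but in normalised CPM all treated values (64.8, 66.8 and 103) were below all controls (117, 108 and 116). The log2 fold change was -0.54 (SE 0.17, adjusted p = 0.0234), and -0.80 without L-733,060 replicate 3 (adjusted p = 4.40e-05). The call was lost when control 1, control 3, L-733,060 replicate 1 or L-733,060 replicate 2 was left out, with adjusted p-values of 0.0731, 0.0749, 0.103 and 0.0780.

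Heyl was counted 7, 3 and 15 times in controls and 35, 22 and 92 times after L-733,060. In TPM these are 0.154, 0.0613 and 0.299 in controls and 0.746, 0.540 and 2.02 after L-733,060. The groups did not overlap, and the treated replicate 3 was the highest. The log2 fold change was 2.63 (SE 0.57, adjusted p = 0.00303), which is 6.19-fold higher. Without L-733,060 replicate 3 it was 1.91 (adjusted p = 0.00571). With so few reads the size is imprecise: leaving out 1 sample at a time gave 1.91 to 3.30, and on log2(TPM + 1), a scale that shrinks low genes, it was 0.78.

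Hey1, the remaining Hey gene, was counted 34, 31 and 47 times in controls and 21, 22 and 38 times after L-733,060. Replicate 3 lay among the controls. Its log2 fold change was -0.37 (SE 0.31, adjusted p = 0.372), and -0.63 without L-733,060 replicate 3 (adjusted p = 0.172). The log2 ratio of Heyl to Hes1 TPM was -9.92 ± 1.04 (SD, n = 3) in controls and -6.64 ± 0.59 after L-733,060. The groups did not overlap, and the exact permutation test gave p = 0.1, or 0.3 adjusted over the 6 ratios. The difference of 3.28 was 2.98 without L-733,060 replicate 3, and 2.75 to 3.79 with each sample left out in turn. The ratio of Hey1 to Hes1 moved by 0.17 (exact permutation p = 0.3, adjusted p = 0.3). It moved by 0.18 without L-733,060 replicate 3, by 0.29 without control 3 and by 0.11 and 0.12 without control 1 and control 2.

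L-733,060 replicate 3 was the highest treated library for all 10 genes, falls and rise alike. Over all tested genes it was the highest in 37.6%. It lay inside the range of the controls for 7 of the 10 genes (27.4% of all genes), while L-733,060 replicates 1 and 2 lay inside it for none (22.2% and 19.9% of all genes). For Notch1 the differences from the control mean in log2 normalised CPM were -0.84 and -1.02 in replicates 1 and 2 and 0.076 in replicate 3. For Jag2 they were -0.80, -1.23 and 0.027.

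**Figure D2:**
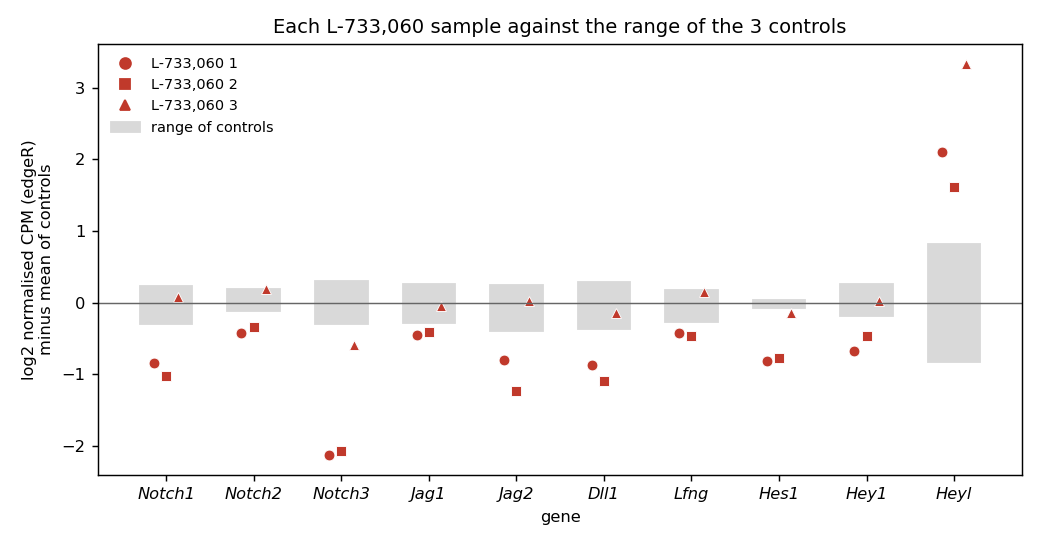
Log2 normalised CPM of each L-733,060 sample minus the mean of the controls (vertical axis) for the 10 genes. Grey boxes span the 3 controls. Replicate 3 (triangles) is the highest red point for every gene and lies in the box for 7 of 10.

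Without L-733,060 replicate 3 the same test called 8 of the 10 genes lower and Heyl higher, and only Hey1 did not pass. As replicate 3 was the highest treated library for all 10 genes, leaving it out was bound to lower every fold change, and 2 treated samples remained. In that comparison 46.7% of all genes passed, 23.1% higher and 23.5% lower, and the median log2 fold change of the 10 genes was -0.72. Leaving out any of the other 5 samples left 1 to 5 genes lower, beside 31.3 to 36.3% of all genes called. Notch3 and Heyl passed in all 19 alternatives run.

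**Figure D3:**
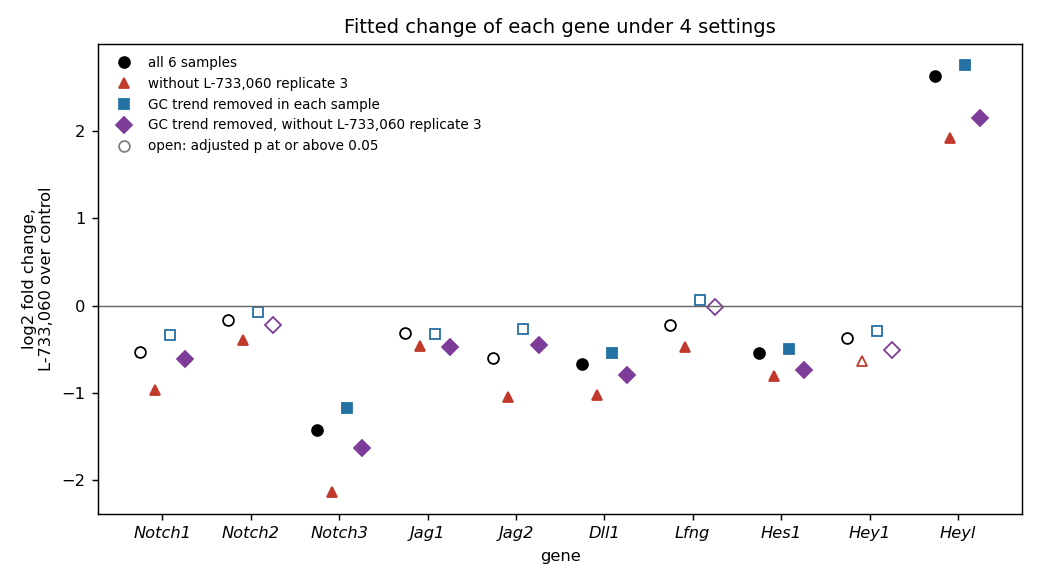
Fitted log2 fold change (vertical axis) of the 10 genes in all 6 samples, without L-733,060 replicate 3, with the trend over GC content removed, and with both. Filled points have an adjusted p under 0.05. Notch3, Dll1, Hes1 and Heyl are filled in all 4 settings, and Lfng is at 0.059 with the GC trend removed.

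The difference between the treated replicates ran along the base composition of the transcripts. Across the 14893 genes with a known GC content, the difference of L-733,060 replicate 3 from the mean of replicates 1 and 2 had a median of -0.30 (log2) in the tenth of lowest GC and 0.46 in the tenth of highest GC. Control 2 differed from controls 1 and 3 the other way, with medians of 0.19 and -0.19. The treated-minus-control difference itself had medians of 0.26 and -0.34. The 10 Notch genes had a median GC content of 55.1%, against 50.1% over the tested genes, from 48.8% for Jag1 to 61.9% for Jag2.

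With that trend removed in each sample, a setting chosen after seeing the data, the counts stayed at 3 lower (Notch3 -1.17, Dll1 -0.54, Hes1 -0.49) and 1 higher (Heyl 2.75), beside 45.2% of all genes called (23.4% higher, 21.8% lower). Lfng changed sign to 0.059 (adjusted p = 0.741). Replicate 3 was still the highest treated library for all 10 genes, against 33.2% of all genes, and lay among the controls for 5 of 10 (24.9% of all genes). Replicates 1 and 2 then each lay among the controls for 1 of 10 (21.5% and 21.6% of all genes). With the trend removed and replicate 3 left out, 6 genes were lower (Notch3, Hes1, Dll1, Notch1, Jag1 and Jag2) and Heyl higher, beside 45.8% of all genes called (24% higher, 21.8% lower). With the trend removed only within each group, 5 genes were lower (Notch1 and Jag2 added to the 3) and Heyl higher, beside 49.3% of all genes called (25.2% higher, 24.1% lower). The part of GC content in the remaining differences was not tested.

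**Figure D4:**
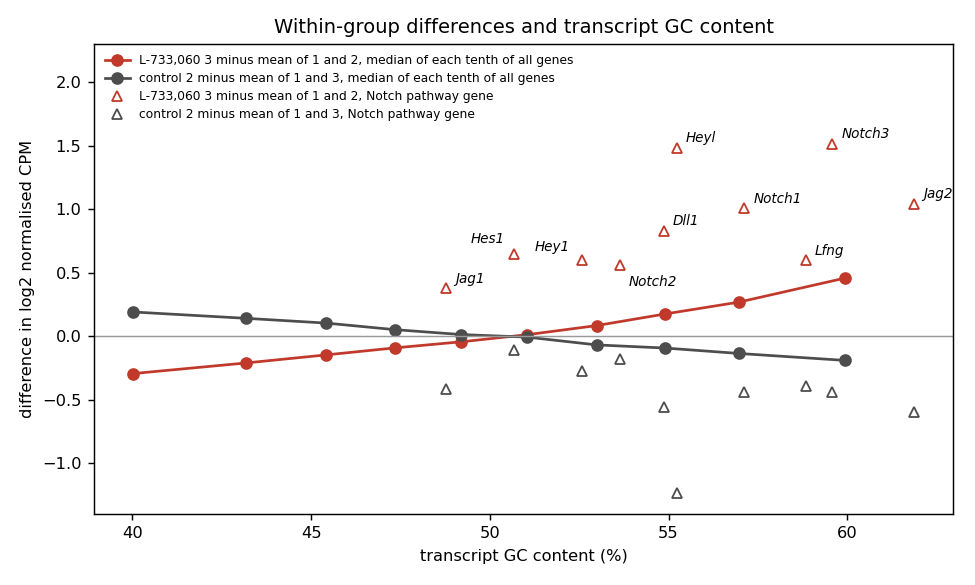
Differences within a group in log2 normalised CPM (vertical axis) against the GC content of the transcript in percent. Filled circles are medians of all genes in 10 bins of GC with near-equal numbers of genes, and triangles are the 10 Notch genes. Along the lines, all red triangles lie above the red line and all grey ones below the grey line. Jag2, at 61.9% GC, lies beyond the last circles.

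Several of these genes overlap others on the opposite strand, and no source used here says whether reads were counted by strand. Notch3 (chr17:32120820-32166896, minus strand) overlaps Gm38585, with 138 counts over the controls and 99 over the treated samples, and Gm41568, with 158 and 44. Notch3 itself had 10115 and 3620 counts. Notch1 (chr2:26457902-26503822, minus strand) overlaps 0610009E02Rik, with 455 and 384 counts beside its own 3802 and 2509. Heyl (chr4:123233556-123249870, plus strand), Hes1 (chr16:30065357-30067796, plus strand) and Dll1 (chr17:15367354-15376932, minus strand) overlap no other gene of the table. The counts of the antisense genes were lower than those of the receptors. With the strand mode unknown, they cannot show how far the overlap changed the counts of either gene.

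The gene outside the set whose log2 normalised CPM was most like that of each Notch gene was found among 12770 genes by Pearson's correlation over the 6 samples. It was Fam83h for Notch3 (r = 0.999), Zfp574 for Notch1 (r = 0.9996) and Rhbdl3 for Notch2 (r = 0.9901). For the ligands it was Zfp408 for Jag1 (r = 0.999), Taf4 for Jag2 (r = 0.998) and Sh2b3 for Dll1 (r = 0.997). Eml3 was most like Lfng (r = 0.993), Irf2 most like Hes1 (r = 0.998), Lmtk3 most like Hey1 (r = 0.991) and Nav1 most like Heyl (r = 0.997). These are descriptions over samples that share 2 groups and the standing of replicate 3, and 64 genes reached an r above 0.99 with Notch3. The correlation also ignores the size of a change. Nav1 had a log2 fold change of 0.48 against 2.63 for Heyl, and Fam83h -0.79 against -1.43 for Notch3. Zfp574 (-0.48) was near Notch1 (-0.53).

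Of 54 other genes of the pathway, 46 passed the filter, and 9 rose and 9 fell with L-733,060. That is 39.1% called, near the 41.3% of all genes, with a median log2 fold change of -0.049. Among the other receptors and ligands 3 of the 4 tested rose and none fell. Notch4, a receptor best known in endothelium, had 0.740, 1.22 and 1.92 CPM in controls and 2.84, 2.35 and 3.80 after L-733,060, without overlap (log2 fold change 1.20, SE 0.35, adjusted p = 0.0152). Its share of receptor TPM was 0.272 to 0.846% in controls and 1.91 to 2.87% after L-733,060. The endothelial ligand Dll4 had 0.648, 0.940 and 0.641 CPM in controls and 2.26, 0.803 and 3.08 after L-733,060, and L-733,060 replicate 2 lay among the controls (1.47, SE 0.45, adjusted p = 0.0208). Dlk2, a Delta-like protein that lacks the receptor-binding DSL domain, rose by 0.80 (SE 0.19, adjusted p = 0.00624). Dner was at -0.79 (SE 0.34, adjusted p = 0.0849), and Dll3 and Dlk1 were too low to test.

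Enzymes that prepare ligands and receptors went both ways. Of 5 ubiquitin ligases listed here under ligand endocytosis, Neurl3 (2.07) and Mib1 (0.52) rose and Mib2 (-0.86) fell. Neurl3 had 0.833, 1.17 and 1.28 CPM in controls and 6.74, 3.64 and 3.48 after L-733,060. Of 9 receptor proteases, Adam10 (0.87) and Adam17 (0.50), which cut the receptor outside the cell, rose, and the gamma-secretase subunit Aph1a (-0.35) fell. Adam10 had 90.5, 93.7 and 93.0 CPM in controls and 166, 167 and 173 after L-733,060, with little spread in either group. Of 4 other glycosyltransferases Mfng, manic fringe (0.94, adjusted p = 0.0446) rose.

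In the nucleus, 2 of 6 genes of the activating complex fell, the Mastermind coactivators Maml3 (-0.95) and Maml2 (-0.43), while Rbpj was at 0.029 (SE 0.14, adjusted p = 0.886). Of 8 corepressors Tle1 (1.33) rose and Spen (-0.95), Tle3 (-0.67) and Tle4 (-0.45) fell. Tle1, a Groucho-type corepressor that Hes proteins recruit, had 5.23, 4.60 and 5.52 CPM in controls and 12.9, 11.2 and 14.6 after L-733,060. Of 9 genes of receptor turnover the Deltex genes Dtx1 (-1.39) and Dtx2 (-0.69) fell, and Nrarp, a Notch target that limits the pathway, was at -0.45 (SE 0.20, adjusted p = 0.0895). Of the other Hes and Hey genes only Hes6 was tested (0.038, adjusted p = 0.853), Helt had no counts, and Hes2, Hes3, Hes5, Hes7 and Hey2 were below 1 CPM in every sample.

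Of these 18 calls, 9 held in every alternative run (Dlk2, Neurl3, Mib2, Adam10, Adam17, Maml3, Tle1, Spen and Tle3). Notch4 was lost without control 1 or control 2, and Tle4 without control 3 or L-733,060 replicate 1. Mib1 and Dtx1 were lost with the GC trend removed and L-733,060 replicate 3 left out. Dll4, Mfng, Aph1a, Maml2 and Dtx2 were each lost under 6 or more alternatives, among them leaving out control 1 or L-733,060 replicate 1. Control 3 also decided Dll4, Mfng, Aph1a and Maml2, control 2 Mfng and Aph1a, L-733,060 replicate 2 Aph1a and Dtx2, and L-733,060 replicate 3 Dll4 and Mfng. Without L-733,060 replicate 3 the numbers lower were 3 of 9 receptor proteases, 3 of 6 activating genes, 4 of 8 corepressors and 4 of 9 turnover genes, and 2 of 4 receptors and ligands were higher. In that comparison 46.7% of all genes passed, 23.5% lower and 23.1% higher.

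**Figure D5:**
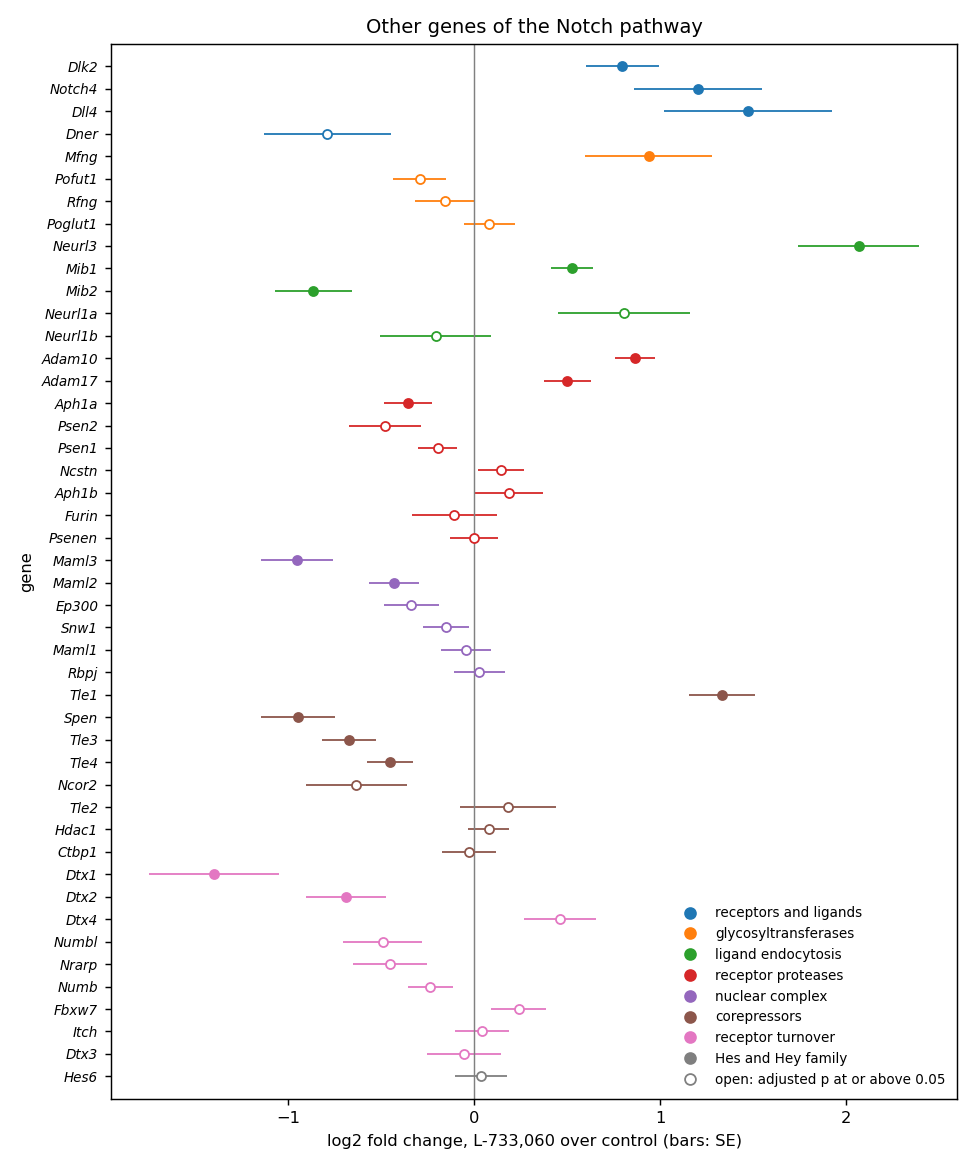
Fitted log2 fold change, L-733,060 over control, with its standard error (horizontal axis) for the 46 tested other genes of the pathway, coloured by role. Filled points have an adjusted p under 0.05. Neurl3 is farthest to the right at 2.07 and Dtx1 farthest to the left at -1.39.

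Markers of several cell types moved with the same contrast, in which 41.3% of all genes were called, 21.4% higher and 19.9% lower. All 7 corneal epithelial markers fell, Krt12 by 3.58 on the log2 scale, and their summed level after L-733,060 was 3924 to 4819 CPM. Of 7 basal epithelial markers 2 rose, Krt14 (3.21) and Itga6 (0.52), and 3 fell, Krt5 (-0.86), Col17a1 (-0.86) and Krt15 (-0.57). The summed level of the 7 was 32939 to 38718 CPM in controls and 32089 to 39609 after L-733,060. Of 8 tested mural markers 5 rose, among them Acta2 (3.56), Mcam (2.72) and Rgs5 (1.39), and Myh11 fell, while Pdgfrb was at 0.31 (adjusted p = 0.321). Of 12 endothelial markers 6 rose, among them Esam (2.06), Cdh5 (1.26) and Emcn (0.87). The 3 that fell were Erg (-0.65), Cldn5 (-0.67) and Tie1 (-0.60). The summed level of the 12 was 93.5 to 123 CPM in controls and 96.6 to 153 after L-733,060. Pecam1 was at 0.30 (adjusted p = 0.230). All 8 macrophage markers rose, and their summed level was 60.2 to 73.8 CPM in controls and 270 to 323 after L-733,060. All 5 tested neutrophil markers rose. The 7 listed neutrophil markers summed to 3.66 to 7.44 CPM in controls and 300.2, 212 and 59.8 after L-733,060. Replicate 3 was thus the lowest treated library. Of the other lists, 4 stromal markers rose and 3 fell of 8 tested, 2 of 3 tested melanocyte markers fell and 2 of 3 tested Schwann cell markers fell. Leaving out 1 sample at a time gave 4 to 7 corneal epithelial, 0 to 2 melanocyte, 0 to 3 Schwann cell and 1 to 3 endothelial markers lower, 3 to 6 endothelial markers higher, 2 to 4 stromal markers higher, 0 or 1 mural marker lower, and at every step 8 macrophage markers higher. The low ends came without control 1 for stromal and endothelial markers higher, without L-733,060 replicate 1 for corneal and Schwann cell markers lower, and without L-733,060 replicate 2 for melanocyte markers lower. Without control 3 or L-733,060 replicate 2 only 1 endothelial marker was lower, and without control 2 or L-733,060 replicate 2 no mural marker was. In the fits with 1 sample left out, 31.3 to 46.7% of all genes were called. No marker of these lists was without counts. Their part in the changes of the Notch genes was not tested.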

How the data were processed

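Poly(A)-selected libraries of limbal tissue from 6 samples (3 per group) were sequenced. Per the submitters' processing notes, bcl2fastq, HISAT2 2.1.0 and HTSeq 0.11.2 were used with the mouse genome mm10. No source used here gives their settings, the strand mode or the annotation release. The authors deposited a whole-number read count per gene and sample. The authors also deposited TPM, which matched counts per gene length (the deposited length column, other) scaled within each sample to within 4.96e-06. PCR copies count as reads, since the labels mention no molecular identifiers. No per-sample column was left unused, and no sample pair looked like a repeated library.

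Counts were fitted in R 4.3.3 with edgeR 4.0.16: filterByExpr (minimum count 10, minimum total 15) left 15712 genes and removed 23377, with TMM scaling and a two-sided quasi-likelihood F test of L-733,060 against control. P-values were adjusted by Benjamini-Hochberg over all tested genes, and adjusted p-values in the report come from this fit unless stated otherwise. The standard error is the absolute log2 fold change divided by the square root of F. Normalised CPM use the TMM factors. The common biological coefficient of variation was 0.157. At these depths 3 counts are 0.127 to 0.160 CPM, a limit for counting error only. Ratios of TPM within a sample were compared by exact permutation (SciPy 1.17.1). GC content came from GENCODE transcripts and was known for 94.8% of the tested genes. The GC trend was a lowess curve (span 0.3) entered as an offset.

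The 10 genes and the gene lists were chosen with earlier results of these data known. All 10 are named. Of each pathway list up to 4 called genes are named, of each cell type list up to 3 of smallest p and the defining markers, and for likeness 1 gene each among genes with mean log2 CPM above 1. Others were named after their values were seen. Alternatives were other scaling, tests and filters, limma 3.58.1 on TPM, DESeq2 1.42.0, a replicate block, each sample left out, and 3 GC settings chosen after seeing the data. The fit was tested on simulated data.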

Additional observations from a re-analysis of the deposited data

How the results depend on the processing

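Heyl (higher) and Notch3 (lower) kept their direction and call in all 19 alternatives, and 1 gene of the 10 was higher in each. With library size only, Dll1 (-0.61, adjusted p = 0.0851) and Hes1 (-0.48, adjusted p = 0.0611) were lost, which left 1 lower, beside 40.8% of all genes called. On log2(TPM + 1) limma gave Dll1 -0.63 and Hes1 -0.55, and on log2(TPM + 0.1) -0.68 and -0.56, not called, so that 1 was lower under either, beside 38.3% and 38.4% of all genes. Without a filter on low counts 5 were lower, with Notch1 (-0.54) and Jag2 (-0.61) added, beside 27.3% of 26373 genes. These 2 fold changes were close to those of the main fit (-0.53 and -0.60), so the added calls came from smaller p-values. With the GC trend removed within groups 5 were lower, with Notch1 (-0.56) and Jag2 (-0.66) added, beside 49.3% of all genes. With it removed in each sample Lfng changed sign to 0.059. With it removed and L-733,060 replicate 3 left out 6 were lower, beside 45.8% of all genes called. Those added were Notch1 (-0.61), Jag1 (-0.47) and Jag2 (-0.45). The cause was not tested.

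With 1 sample left out in turn, 1 to 8 of the 10 were lower. The log2 fold changes ran from -1.02 to -0.49 for Dll1, -0.80 to -0.42 for Hes1, -0.96 to -0.33 for Notch1, -0.39 to -0.056 for Notch2, -0.46 to -0.17 for Jag1, -1.04 to -0.36 for Jag2, -0.47 to -0.12 for Lfng, -0.63 to -0.22 for Hey1, -2.14 to -1.16 for Notch3 and 1.91 to 3.30 for Heyl. In the same 6 fits 31.3 to 46.7% of all genes were called, 2677 to 3722 higher and 2354 to 3788 lower. Over the 19 alternatives the adjusted p ran from 4.40e-05 to 0.103 for Hes1, 2.04e-04 to 0.163 for Dll1, 1.12e-04 to 0.289 for Jag2, 7.78e-05 to 0.313 for Notch1, 1.92e-22 to 0.0350 for Notch3 and 9.08e-10 to 0.0239 for Heyl. The lowest values of Notch3 and Heyl came from the fit without a filter on low counts. Their fold changes there (-1.44 and 2.62) were close to those of the main fit (-1.43 and 2.63).

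With the replicate number as a block 5 were lower, with Notch1 (-0.59, adjusted p = 0.0144) and Jag2 (-0.67, adjusted p = 0.00236) added, beside 45% of all genes called. Same-numbered samples deviated together by correlations of -0.02, 0.27 and 0.13. Control 1 correlated best with L-733,060 replicate 3 (0.16), while control 2 and control 3 correlated best with the treated sample of their own number. The labels do not say whether the numbers pair the samples, and with 3 samples per group these correlations cannot decide it. Counts in the gene lists moved by over 1.5 times in 65 of 646 cases. The low counts of Heyl and Hey1 limit their precision.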
